A study of Mus musculus with 19 samples.

Results

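Prm1, Gdpd3, Gpat2, Krt10 and Dmrtb1 are 5 of the 22193 genes in the deposited expression tables, and they were chosen because their levels separate the cerebella of the 2 Gnas knockout models. Levels in the knockout libraries chose the genes, so their differences between the knockouts are given here as a description and carry no test. In the libraries as a whole, Prm1, Krt10 and Dmrtb1 were higher in hGFAP-Gnas cerebella than in Olig1-Gnas cerebella, and Gdpd3 and Gpat2 were lower.

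The study sequenced messenger RNA from the cerebellum of 19 C57BL/6 mice at postnatal day 60. hGFAP-Gnas mice (n = 8) lacked Gsα conditionally through hGFAPCre, Olig1-Gnas mice (n = 8) lacked it conditionally through Olig1Cre, and Ctrl mice (n = 3) were wild type. Mice that carry a Cre driver without the Gsα deletion were not analysed here, so in each knockout the driver and the deletion cannot be told apart. The table of hGFAP-Gnas libraries is named as tumour by its submitters, and the labels call every sample cerebellum; the sex of the mice is not given in the sources used here. In such bulk tissue, fewer cells of a type and less RNA per cell cannot be told apart.

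Gnas encodes Gsα, the stimulatory G protein subunit that raises cyclic AMP, and cyclic AMP signalling restrains the Sonic hedgehog pathway in the granule neuron progenitors from which Shh medulloblastoma arises. The human GFAP promoter is active in radial glia and neural progenitors as well as in astrocytes, and Olig1 marks progenitors of the oligodendrocyte lineage. The genes described here are known mainly from other tissues: Prm1 and Dmrtb1 from male germ cells, Gpat2 from testis, Krt10 from skin, and Gdpd3 as an enzyme of lysophospholipid breakdown.

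The sequences just upstream of the annotated starts are shown so that the letters before genes higher in hGFAP-Gnas and before genes higher in Olig1-Gnas can be set side by side. They are 250 bases before the start, 5′ to 3′ on the gene's strand, from RefSeq on GRCm38.p6, where all 5 genes matched by symbol, with every TATAA in capitals. The tables themselves give positions on mm9, which are quoted separately further on. Prm1 (chr16:10796824-10797073, minus strand) and Krt10 (chr11:99389365-99389614, minus strand) were higher in hGFAP-Gnas, and Gdpd3 (chr7:126766164-126766413, plus strand) and Gpat2 (chr2:127424949-127425198, plus strand) were higher in Olig1-Gnas.
Prm1: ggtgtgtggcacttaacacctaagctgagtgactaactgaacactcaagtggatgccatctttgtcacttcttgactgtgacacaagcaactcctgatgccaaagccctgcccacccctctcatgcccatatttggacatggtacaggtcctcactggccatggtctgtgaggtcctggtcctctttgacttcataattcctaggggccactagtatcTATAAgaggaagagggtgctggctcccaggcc
Krt10: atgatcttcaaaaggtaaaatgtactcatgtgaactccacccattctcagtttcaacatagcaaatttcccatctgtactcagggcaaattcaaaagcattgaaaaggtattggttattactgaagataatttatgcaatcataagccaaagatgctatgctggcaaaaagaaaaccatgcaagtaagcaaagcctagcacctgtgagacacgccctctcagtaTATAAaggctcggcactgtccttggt
Gdpd3: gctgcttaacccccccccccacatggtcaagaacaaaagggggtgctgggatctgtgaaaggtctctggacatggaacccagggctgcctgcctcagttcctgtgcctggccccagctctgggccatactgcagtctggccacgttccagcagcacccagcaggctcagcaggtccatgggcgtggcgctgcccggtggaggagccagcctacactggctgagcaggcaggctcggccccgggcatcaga
Gpat2: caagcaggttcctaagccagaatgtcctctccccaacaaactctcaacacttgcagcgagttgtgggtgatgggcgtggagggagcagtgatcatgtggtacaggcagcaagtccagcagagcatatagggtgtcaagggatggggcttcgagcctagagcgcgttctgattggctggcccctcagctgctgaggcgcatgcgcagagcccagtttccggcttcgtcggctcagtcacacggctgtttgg

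TATAA, searched on both strands, was present in the windows of Prm1 and Krt10, where it begins 32 and 26 bases before the start. It was in neither window of Gdpd3 and Gpat2, and in neither of the 2 RefSeq start windows of Dmrtb1, which are not printed. Of all 32851 promoter windows of the same length, 22.8% hold it. TATAA was searched after the sequences had been read. The full cyclic AMP response element TGACGTCA is in 1.55% of all windows, its core TGACG, which the full element contains, in 17.8%, and the GLI site GACCACCCA in 0.225%. None of the 5 genes holds an exact match to any of these 3 in its windows. Near matches were not searched, and the Prm1 window holds tgacttca, which resembles the full element. The guanine and cytosine content was 51.6% for Prm1, 39.6% for Krt10, 65.2% for Gdpd3 and 58.4% for Gpat2. The median of all windows was 52.4%, with quartiles at 45.2% and 61.2%. These matches describe letters in a window and were not tested as sites of any factor.

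Levels are in FPKM, the fragments assigned to a gene, divided by its length and by the library's total. FPKM summed to 505739 to 659634 per library in hGFAP-Gnas, 603067 to 689165 in Olig1-Gnas and 508329 to 525832 in Ctrl. Relative depth, inferred from low values and set against Ctrl 2, fell into a deeper class of 10 libraries (0.829 to 1.06) and a shallower class of 9 (0.27 to 0.438). hGFAP-Gnas 5 to 8, Olig1-Gnas 1 to 4 and Ctrl 3 are the shallower ones. Gnas was 40.9 FPKM in hGFAP-Gnas 5 and listed at 0 in the other 7 hGFAP-Gnas libraries, 0 to 121 FPKM in Olig1-Gnas, and 651, 798 and 0 FPKM in Ctrl 1, 2 and 3 in the table of Olig1-Gnas. Because Ctrl 3 is listed at 0 in both tables, and Ctrl 1 is at 0 in the other table, a listed 0 of Gnas does not show loss of the gene. The Y-linked gene Ddx3y reached at least 1 FPKM in 7 of 8 hGFAP-Gnas libraries (all but hGFAP-Gnas 3), in 2 of 8 Olig1-Gnas libraries (5 and 8) and in 2 of 3 Ctrl libraries (all but Ctrl 3), so this signal and the 2 knockouts move together.

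Differences were fitted with limma on log2(FPKM + 1), for genes with 1 FPKM or more in 3 or more libraries of a comparison, and a gene is called at an adjusted p under 0.05. Between the knockouts 5 of 5 genes were called, where 0.41% of all 14386 tested genes were (0.264% higher and 0.146% lower in hGFAP-Gnas); the genes were chosen on this contrast, and nothing is read from the count. The ranges of 3 of the 5, Prm1 and Dmrtb1 above and Gdpd3 below, did not overlap between the knockouts, against 0.598% of all tested genes (0.292% higher and 0.306% lower).

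In hGFAP-Gnas over Ctrl 4 of the 5 were tested and 3 were called, all higher, where 38.9% of all 14305 tested genes were called (26.1% higher and 12.8% lower). The groups of 1 of the 4, Dmrtb1, did not overlap, against 23.8% of all tested genes (15.2% higher and 8.56% lower). In Olig1-Gnas over Ctrl 3 of the 5 were tested and 2 were called, both higher, where 59.8% of all 14183 tested genes were called (36.2% higher and 23.6% lower). The groups of 2 of the 3, Gdpd3 and Gpat2, did not overlap, against 53.7% of all tested genes (32.2% higher and 21.5% lower). The knockout libraries also entered the choice of the genes, so the p-values against Ctrl are not independent of it and the counts are read as a description, and both comparisons share the same 3 Ctrl mice.

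**Figure D1:**
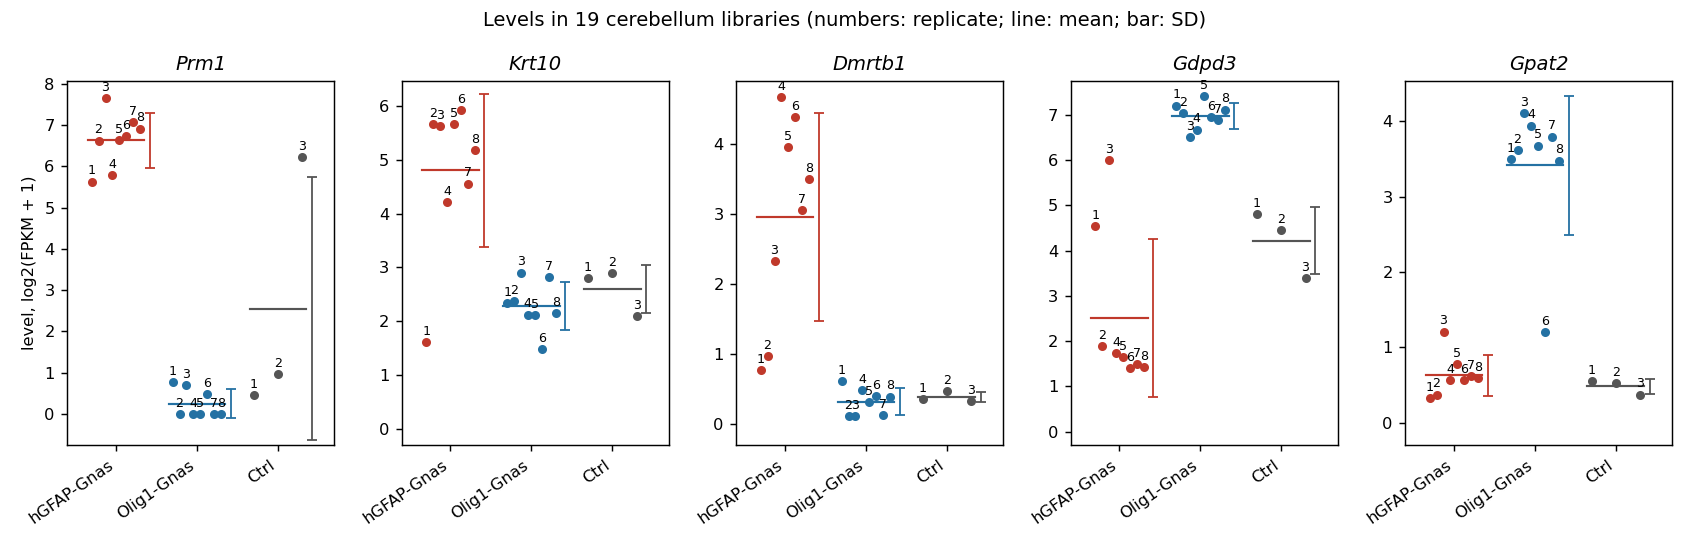
Level of each of the 5 genes as log2(FPKM + 1) in every library, with hGFAP-Gnas left of Olig1-Gnas and Ctrl; points are libraries numbered by replicate, lines are group means and bars are SD. Prm1 corresponds to 48.4 to 199 FPKM in hGFAP-Gnas and to 0.720 FPKM or less in Olig1-Gnas, and Ctrl 3, at 73.2 FPKM, lies far from Ctrl 1 and 2.

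Prm1 (mm9 chr16:10796424-10796916) encodes protamine 1, the small arginine-rich protein that replaces histones in spermatid nuclei. Its level in hGFAP-Gnas 1 to 8 was 48.4, 97.2, 199, 53.9, 97.9, 106, 133 and 119 FPKM. In Olig1-Gnas 1 to 8 it was 0.720, 0, 0.637, 0, 0, 0.403, 0 and 0 FPKM, and in Ctrl 1, 2 and 3 it was 0.380, 0.964 and 73.2 FPKM. Every hGFAP-Gnas library lay above every Olig1-Gnas library, and 1 of the 3 wild-type libraries lay inside the hGFAP-Gnas range.

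The group values were 107 ± 47.5 FPKM in hGFAP-Gnas (SD, n = 8), 0.220 ± 0.316 FPKM in Olig1-Gnas (SD, n = 8) and 24.9 ± 41.9 FPKM in Ctrl (SD, n = 3). The log2 difference, on the log2(FPKM + 1) scale used throughout, was 6.38 ± 0.25 (SE) for hGFAP-Gnas over Olig1-Gnas. Prm1 was the 1 gene among 22193 with at least 5 FPKM in every hGFAP-Gnas library and under 1 FPKM in every Olig1-Gnas library, and 0 genes showed the opposite. This pattern was drawn from the same values that chose Prm1, so its place in the count is a description only. Against Ctrl, Prm1 was higher in hGFAP-Gnas by 4.08 ± 0.97 (SE), with a limma adjusted p of 0.0125. Only 1 of the 3 Ctrl libraries reached 1 FPKM, so the gene passed the filter through hGFAP-Gnas, where it was chosen as high. The p-values of this comparison are therefore no support for the difference. The adjusted p was 0.0682 without Ctrl 1 and 0.0661 without Ctrl 2, so the call rests on each of these libraries. Without Ctrl 3 the log2 difference was 5.91, with a limma adjusted p of 0.00114. In Olig1-Gnas against Ctrl the gene did not pass the filter on low values; fitted without it, the difference was -2.30 ± 0.94 (SE, limma adjusted p = 0.0661), with Ctrl 3 as the 1 library of both groups above 1 FPKM.

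Ctrl 3 is labelled wild type, and its Prm1 level broke the pattern of its group. It was 1 of 39 genes with at least 5 FPKM in Ctrl 3 and under 1 FPKM in Ctrl 1 and 2. Of these, Prm1 was the 1 gene with every hGFAP-Gnas library above every Olig1-Gnas library, the contrast on which it was chosen. Ctrl 3 also stood apart in choroid plexus markers: the summed level of Ttr, Folr1 and Kcnj13 was 1218 FPKM there and 1.72 FPKM in Ctrl 1, the lowest of the 3. Olig1-Gnas 8 had a higher sum of 2338 FPKM and Prm1 at 0, and hGFAP-Gnas 3 had a sum of 0.651 FPKM and the highest Prm1 level of all, 199 FPKM. Among Ctrl, only Ctrl 3 lacked Y-linked signal (Ddx3y at 0.0228 FPKM) and only Ctrl 3 was in the shallower class (relative depth 0.371). The part of choroid plexus RNA, Y-linked signal or depth in the Prm1 level was not tested.

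Segments of the mouse Prm1 gene with its polyadenylation signal are a common 3′ end of transgene cassettes. Whether the Prm1 fragments here came from a transgene or from the chromosomal gene was not tested, since 1 FPKM value per gene does not show which part of a gene the fragments cover. Values that bear on germ cell RNA were at hand. Among 13 genes of spermatids, the haploid cells in which Prm1 is normally transcribed, 12 stayed under 1 FPKM in all 19 libraries and 4 were at 0 throughout. The remaining one, Gapdhs, a sperm glycolytic enzyme, was at 1.11 to 3.52 FPKM in hGFAP-Gnas, 0.781 to 2.32 FPKM in Olig1-Gnas and 1.73 to 3.39 FPKM in Ctrl. It did not pass the test in any of the 3 comparisons, with limma adjusted p-values of 0.522, 0.506 and 0.110 for hGFAP-Gnas over Olig1-Gnas, hGFAP-Gnas over Ctrl and Olig1-Gnas over Ctrl.

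The neighbours of Prm1 on the chromosome divided by side. Prm2, Prm3 and Tnp2, which like Prm1 package spermatid chromatin or lie in its cluster, lie 4234 to 7676 bases from it in the tables. Tnp2 reached at most 0.104 FPKM in hGFAP-Gnas, 0.408 FPKM in Olig1-Gnas and 0.323 FPKM in Ctrl. Prm3 was at 0 in all 19 libraries, and Prm2 reached at most 0.177 FPKM in hGFAP-Gnas, 0.0968 FPKM in Olig1-Gnas and 0 in Ctrl. None of these 3 neighbours reached 1 FPKM in any library.

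On the other side lie A630055G03Rik, Litaf and Snn, all higher in both knockouts than in Ctrl. Of all tested genes, 26.1% were higher in hGFAP-Gnas and 36.2% in Olig1-Gnas. A630055G03Rik was under 1 FPKM in every Ctrl library and passed the filter only through the knockouts. Litaf, a protein of late endosomes and lysosomes, averaged 26.1 ± 6.65 FPKM in hGFAP-Gnas (SD, n = 8), 29.65 ± 5.92 FPKM in Olig1-Gnas (SD, n = 8) and 7.76 ± 2.24 FPKM in Ctrl (SD, n = 3). None of the 3 was called between the knockouts by limma, with adjusted p-values of 0.511, 0.477 and 0.755, where only 0.41% of all tested genes were.

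Dmrtb1 (mm9 chr4:107348894-107356767) encodes a DM-domain transcription factor that in mouse testis governs the switch of spermatogonia between mitosis and meiosis. It was at 0.703, 0.961, 4.03, 24.4, 14.4, 19.9, 7.29 and 10.3 FPKM in hGFAP-Gnas 1 to 8. It was at 0.0786 to 0.532 FPKM in Olig1-Gnas, with a median of 0.279 FPKM, and at 0.282, 0.381 and 0.254 FPKM in Ctrl 1, 2 and 3. Every hGFAP-Gnas library lay above every Olig1-Gnas and every Ctrl library, but hGFAP-Gnas 1 and 2 stayed under 1 FPKM, close to the highest Olig1-Gnas library.

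Dmrtb1 averaged 10.2 ± 8.75 FPKM in hGFAP-Gnas (SD, n = 8), 0.259 ± 0.166 FPKM in Olig1-Gnas (SD, n = 8) and 0.306 ± 0.0667 FPKM in Ctrl (SD, n = 3). The log2 difference was 2.63 ± 0.49 (SE) for hGFAP-Gnas over Olig1-Gnas. It was higher in hGFAP-Gnas than in Ctrl by 2.57 ± 0.79 (SE), with a limma adjusted p of 0.0279; it is under 1 FPKM in every Ctrl library and passed the filter only through hGFAP-Gnas, where it was chosen as high, so this p is no support for the difference. The call was lost without any 1 of Ctrl 1, 2 or 3, at adjusted p-values of 0.0881, 0.0844 and 0.0841. In Olig1-Gnas against Ctrl the gene did not pass the filter, and without it the difference was -0.06 ± 0.11 (SE, limma adjusted p = 0.676).

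Of 6 other DM-domain genes, 5 stayed under 1 FPKM in all 19 libraries and 0 passed the filter. Of 13 genes of spermatogonia and meiosis, 7 stayed under 1 FPKM everywhere. For hGFAP-Gnas over Ctrl 5 were tested, with 0 higher and 2 lower: Sycp1, a synaptonemal complex protein, fell by 1.46 ± 0.33 (SE, limma adjusted p = 0.0106) and Kit, a receptor tyrosine kinase that cerebellar interneurons also express, fell by 2.33 ± 0.47 (SE, limma adjusted p = 0.00851). Olig1-Gnas over Ctrl gave 0 higher and 3 lower of 6, namely Kit (-2.84), Sycp1 (-1.24) and Sycp3 (-1.17). Between the knockouts 0 of 6 passed. The median log2 difference of the tested genes was 0.09 for hGFAP-Gnas over Olig1-Gnas, -0.76 for hGFAP-Gnas over Ctrl and -0.73 for Olig1-Gnas over Ctrl. Over all genes tested it was -0.007, 0.186 and 0.217. Of all tested genes, only 0.41% were called between the knockouts. In hGFAP-Gnas over Ctrl 26.1% were higher and 12.8% lower, and in Olig1-Gnas over Ctrl 36.2% and 23.6%.

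Of the neighbours of Dmrtb1, 0 of 5 tested were called between the knockouts, where only 0.41% of all tested genes were. Tmem48, a nuclear pore protein, and Magoh, of the exon junction complex, rose in hGFAP-Gnas over Ctrl by 1.06 and 1.28. The lipoprotein receptor gene Lrp8 fell by 1.03. Of all genes tested there, 26.1% were higher and 12.8% lower. The same genes were called in the same directions in Olig1-Gnas over Ctrl, at 1.54 for Tmem48, 1.91 for Magoh and -1.25 for Lrp8. 0610037L13Rik was called higher there as well (0.36). Of all genes tested in Olig1-Gnas over Ctrl, 36.2% were higher and 23.6% lower.

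Krt10 (mm9 chr11:99246568-99250678) encodes a type I keratin of the suprabasal epidermis that pairs with Krt1. It was at 2.06, 49.9, 48.3, 17.7, 49.8, 59.6, 22.6 and 35.1 FPKM in hGFAP-Gnas 1 to 8. It was at 1.80 to 6.49 FPKM in Olig1-Gnas, with a median of 3.74 FPKM, and at 6.01, 6.46 and 3.27 FPKM in Ctrl 1, 2 and 3. hGFAP-Gnas 2 to 8 lay above every library of Olig1-Gnas and Ctrl. hGFAP-Gnas 1 lay below every Ctrl library and within the Olig1-Gnas range.

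Krt10 averaged 35.6 ± 19.9 FPKM in hGFAP-Gnas (SD, n = 8), 4.08 ± 1.53 FPKM in Olig1-Gnas (SD, n = 8) and 5.25 ± 1.73 FPKM in Ctrl (SD, n = 3). The log2 difference was 2.52 ± 0.49 (SE) for hGFAP-Gnas over Olig1-Gnas. Over Ctrl, Krt10 was higher in hGFAP-Gnas by 2.21 ± 0.77 (SE), with a limma adjusted p of 0.0413. This call was lost in 10 of the 11 fits that left out 1 library, with a limma adjusted p of up to 0.136 (without Ctrl 3); without hGFAP-Gnas 1 it was 0.000173. Krt10 was chosen on these hGFAP-Gnas libraries, so these p-values are not independent of the choice. In Olig1-Gnas over Ctrl it was not called (-0.31 ± 0.29, SE, limma adjusted p = 0.375).

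hGFAP-Gnas 1 was also the library of its group nearest to Ctrl in markers of granule neurons and of dividing cells. Gabra6, a receptor subunit of mature granule neurons, was at 261 FPKM in hGFAP-Gnas 1, 4.48 to 159 FPKM in the other hGFAP-Gnas libraries and 224 to 468 FPKM in Ctrl. Mki67, a marker of dividing cells, was at 2.697 FPKM in it, 42.97 FPKM or more in the others, and 0.188 to 0.325 FPKM in Ctrl. Prm1 in the same library was 48.4 FPKM, the lowest of its group but far above Ctrl 1 and 2.

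Epidermal markers were low in all groups. The summed level of Krt1, Krt5, Krt14 and Lor was 0.369 to 3.14 FPKM in hGFAP-Gnas, highest in hGFAP-Gnas 1, 0.063 to 1.85 FPKM in Olig1-Gnas and 0.882 to 1.29 FPKM in Ctrl. Of 15 keratin and cornified envelope genes, 14 were in the tables and 9 stayed under 1 FPKM in every library. Of 3 tested for hGFAP-Gnas over Ctrl, 2 were higher, against 26.1% of all tested genes. Krt12, known from corneal epithelium, rose by 4.34 ± 0.91 (SE, limma adjusted p = 0.00928). Krt20, known from gut and urothelium, rose by 1.69 ± 0.46 (SE, limma adjusted p = 0.0190). Both were under 1 FPKM in every Ctrl library and passed the filter only through hGFAP-Gnas, so these p-values are no support for the differences. Between the knockouts 0 of 3 passed (0.41% of all tested genes), and in Olig1-Gnas over Ctrl 0 of 2 passed (59.8%). The medians of the tested genes of this list were 0.46 and 2.36 there, and 1.69 in hGFAP-Gnas over Ctrl. Krt12 and Krt20 were also higher in Olig1-Gnas than in Ctrl, by 3.36 ± 1.34 and 1.35 ± 0.76 (SE), without a call.

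Krt12 and Krt20 are also neighbours of Krt10 in the keratin cluster, together with Krt23. Krt12 was at 0.350 to 53.2 FPKM in hGFAP-Gnas (median 28.4), 0.189 to 116 FPKM in Olig1-Gnas (median 12.1) and 0.0679 to 0.123 FPKM in Ctrl. Krt23 was at 0.0540 to 3.36 FPKM in hGFAP-Gnas (median 1.90), 0 to 0.469 FPKM in Olig1-Gnas and 0 in all 3 Ctrl libraries. hGFAP-Gnas 1, the library with the lowest Krt10, was also the lowest of its group for Krt12, Krt20 and Krt23. Of the 30 nearest neighbours of the 5 genes, 21 were tested between the knockouts and 1 was called, Krt23, higher in hGFAP-Gnas by 1.21 ± 0.24 (SE, limma adjusted p = 0.0317). The background of that comparison was 59 of 14386 genes called, 0.41%. Krt23 was under 1 FPKM in every Olig1-Gnas library and passed the filter only through hGFAP-Gnas, so this p is no support for the difference. On the other side of Krt10, the hair follicle keratins Krt26, Krt27 and Krt28 stayed under 1 FPKM throughout.

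**Figure D2:**
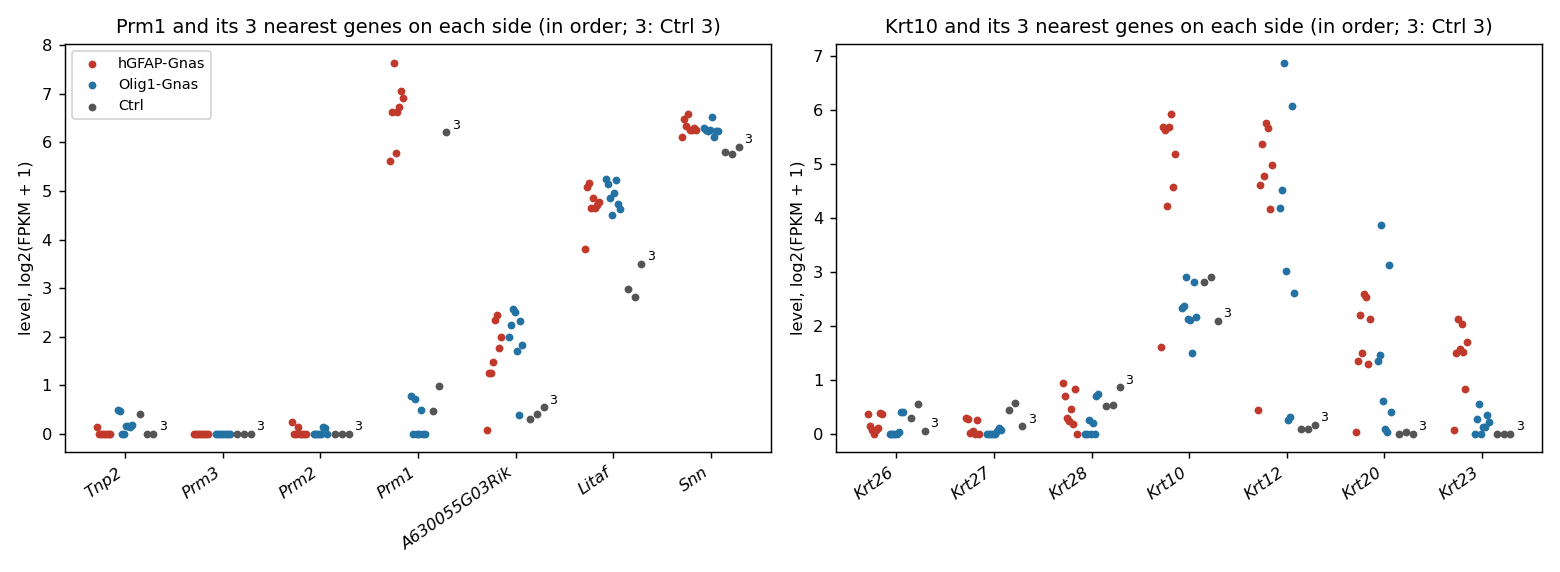
Level as log2(FPKM + 1) in every library of Prm1 (left) and Krt10 (right) and of the 3 nearest genes on each side, in chromosomal order, with hGFAP-Gnas, Olig1-Gnas and Ctrl in 3 colours and Ctrl 3 numbered. Tnp2, Prm3 and Prm2 lie near 0 in all groups beside Prm1. Beside Krt10 the genes Krt12, Krt20 and Krt23 are raised in most hGFAP-Gnas libraries. Krt12 and Krt20 are raised in several Olig1-Gnas libraries too, up to 116 and 13.6 FPKM.

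Gdpd3 (mm9 chr7:133909927-133919159) encodes a lysophospholipase D that makes lysophosphatidic acid. It was at 22.3, 2.71, 62.6, 2.32, 2.12, 1.63, 1.82 and 1.68 FPKM in hGFAP-Gnas 1 to 8. It was at 90.2 to 170 FPKM in Olig1-Gnas, with a median of 126.5 FPKM, and at 27.1, 20.9 and 9.48 FPKM in Ctrl 1, 2 and 3. Every hGFAP-Gnas library lay below every Olig1-Gnas library, and every Olig1-Gnas library lay above every Ctrl library. Of the hGFAP-Gnas libraries, 6 lay below all Ctrl, hGFAP-Gnas 1 lay among them and hGFAP-Gnas 3 lay above them.

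Gdpd3 averaged 12.2 ± 21.6 FPKM in hGFAP-Gnas (SD, n = 8), 127 ± 25.3 FPKM in Olig1-Gnas (SD, n = 8) and 19.1 ± 8.91 FPKM in Ctrl (SD, n = 3). The log2 difference was -4.46 ± 0.58 (SE) for hGFAP-Gnas over Olig1-Gnas. Gdpd3 was higher in Olig1-Gnas than in Ctrl by 2.76 ± 0.27 (SE), with a limma adjusted p of 4.24e-06, and this call held in every alternative run. Gdpd3 was chosen on these Olig1-Gnas libraries, so neither this p nor its persistence is independent of the choice. In hGFAP-Gnas over Ctrl it was not called (-1.70 ± 0.95, SE, limma adjusted p = 0.166). Without hGFAP-Gnas 3 it was called lower there (-2.20, limma adjusted p = 0.0302).

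hGFAP-Gnas 3 had the highest Prm1, Gdpd3 and Gpat2 of the hGFAP-Gnas libraries, and it is the 1 library of that group without Y-linked signal. The 2 Olig1-Gnas libraries with that signal, 5 and 8, had Gdpd3 at 170 and 138 FPKM and Gpat2 at 11.8 and 10.1 FPKM, within the range of their group. In hGFAP-Gnas 1, which has the signal, Gdpd3 was 22.3 FPKM, within the Ctrl range. The signal moves together with the knockouts, and its part in the levels of these genes was not tested.

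Of 8 genes of glycerophosphodiesterases and lysophosphatidic acid metabolism, 7 were tested. Between the knockouts 0 were called, where only 0.41% of all tested genes were. Against Ctrl, 2 were higher and 0 lower in hGFAP-Gnas: Gdpd2 by 1.13 ± 0.28 (SE, limma adjusted p = 0.0137) and Gdpd1 by 0.64 ± 0.24 (SE, limma adjusted p = 0.04999, at the edge of the threshold). In Olig1-Gnas over Ctrl Gdpd1 was higher by 0.95 ± 0.17 (SE) and Gde1 lower, at -1.04 ± 0.23 (SE). Of all tested genes, 26.1% were higher and 12.8% lower in hGFAP-Gnas over Ctrl, and 36.2% and 23.6% in Olig1-Gnas over Ctrl. The medians of the 7 were 0.45 for hGFAP-Gnas over Olig1-Gnas, -0.18 for hGFAP-Gnas over Ctrl and -0.56 for Olig1-Gnas over Ctrl.

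Gdpd3 lies in a gene-dense stretch, with Mapk3, the kinase ERK1, 597 bases away in the tables and Ypel3 1329 bases away on the other side. Neither was called between the knockouts, at -0.13 for Mapk3 and 0.37 for Ypel3 (limma adjusted p = 0.560 and 0.314). In Olig1-Gnas over Ctrl, Bola2 (1.60), Ppp4c (1.38) and Mapk3 (0.41) were higher and Ypel3 (-0.80) was lower, beside 2.76 for Gdpd3. Of all tested genes, 36.2% were higher and 23.6% lower in that comparison, and 0.41% were called between the knockouts. In hGFAP-Gnas over Ctrl 1 of 6 neighbours was called, Ppp4c, higher by 0.80 (limma adjusted p = 0.0389), beside -1.70 for Gdpd3. Bola2 was at 1.08 in hGFAP-Gnas over Ctrl (limma adjusted p = 0.051), not called. Of all tested genes, 26.1% were higher and 12.8% lower in hGFAP-Gnas over Ctrl.

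Gpat2 (mm9 chr2:127250934-127261828) encodes a mitochondrial glycerol-3-phosphate acyltransferase of the first step of glycerolipid synthesis, which in mouse germ cells is tied to piRNA production. It was at 0.253, 0.293, 1.31, 0.476, 0.712, 0.473, 0.536 and 0.508 FPKM in hGFAP-Gnas 1 to 8. In Olig1-Gnas 1 to 8 it was at 10.3, 11.3, 16.2, 14.4, 11.8, 1.30, 12.9 and 10.1 FPKM, and in Ctrl 1, 2 and 3 at 0.462, 0.438 and 0.292 FPKM. Every Olig1-Gnas library lay above every Ctrl library. hGFAP-Gnas 3, the highest of its group, and Olig1-Gnas 6, the lowest of its group, met at 1.31 and 1.30 FPKM, and the other 7 libraries of each knockout did not overlap.

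Gpat2 averaged 0.570 ± 0.330 FPKM in hGFAP-Gnas (SD, n = 8), 11.04 ± 4.44 FPKM in Olig1-Gnas (SD, n = 8) and 0.397 ± 0.0920 FPKM in Ctrl (SD, n = 3). The log2 difference was -2.79 ± 0.32 (SE) for hGFAP-Gnas over Olig1-Gnas. Gpat2 was higher in Olig1-Gnas than in Ctrl by 2.94 ± 0.49 (SE), with a limma adjusted p of 0.000322; it is under 1 FPKM in every Ctrl library and passed the filter only through Olig1-Gnas, where it was chosen as high, so this p is no support for the difference. In hGFAP-Gnas against Ctrl only hGFAP-Gnas 3 reached 1 FPKM, so the gene did not pass the filter; fitted without a filter, the difference was 0.15 ± 0.16 (SE, limma adjusted p = 0.517).

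Of 13 other genes of glycerolipid synthesis, 12 were tested, with 0 called between the knockouts, where only 0.41% of all tested genes were. In Olig1-Gnas over Ctrl 0 were higher and 4 lower: the acyltransferases Agpat9 (-1.44) and Agpat3 (-0.67), the phosphatidate phosphatase Lpin1 (-0.65) and the triglyceride enzyme Dgat2 (-0.60). For hGFAP-Gnas over Ctrl 0 were higher and 1 lower, Agpat9, at -0.99 ± 0.31 (SE, limma adjusted p = 0.0303). The median log2 differences were 0.08 for hGFAP-Gnas over Olig1-Gnas, 0.02 for hGFAP-Gnas over Ctrl and -0.07 for Olig1-Gnas over Ctrl. Of all tested genes, 26.1% were higher and 12.8% lower in hGFAP-Gnas over Ctrl, and 36.2% and 23.6% in Olig1-Gnas over Ctrl. Agpat9 was under 1 FPKM in every Olig1-Gnas library, so for Olig1-Gnas over Ctrl it passed the filter only through Ctrl.

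Of 7 piRNA pathway genes, 5 stayed under 1 FPKM in every library and 1 was tested in Olig1-Gnas over Ctrl. That gene, Piwil2, an Argonaute protein that binds piRNAs, was higher by 0.81 ± 0.28 (SE, limma adjusted p = 0.0274), and it was not called between the knockouts. Piwil2 was under 1 FPKM in every Ctrl library and passed the filter only through Olig1-Gnas, so this p is no support for the difference. Of all tested genes, 36.2% were higher in Olig1-Gnas over Ctrl. Fahd2a, 122 bases from Gpat2 in the tables, was not called between the knockouts (0.29, limma adjusted p = 0.230) and was lower in Olig1-Gnas than in Ctrl (-0.67).

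**Figure D3:**
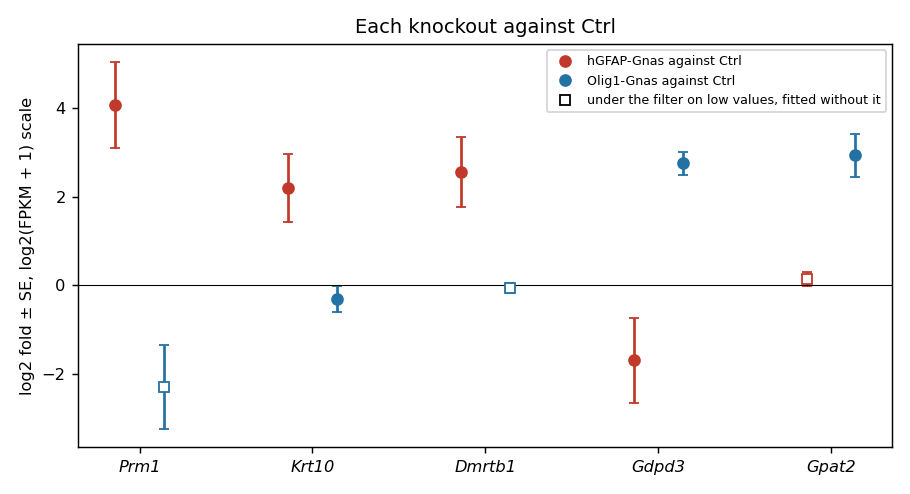
Log2 differences with standard errors, on the log2(FPKM + 1) scale, of each gene for hGFAP-Gnas over Ctrl and Olig1-Gnas over Ctrl; open squares mark genes that did not pass the filter on low values and were fitted without it. Prm1, Krt10 and Dmrtb1 stand at 4.08, 2.21 and 2.57 in hGFAP-Gnas over Ctrl, and Gdpd3 and Gpat2 at 2.76 and 2.94 in Olig1-Gnas over Ctrl.

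The order of the group medians differed from gene to gene. Krt10 and Dmrtb1 ran from hGFAP-Gnas down to Ctrl and Olig1-Gnas, which overlapped each other. Gpat2 ran from Olig1-Gnas down to hGFAP-Gnas and Ctrl, which overlapped each other. Gdpd3 ran from Olig1-Gnas down to Ctrl and hGFAP-Gnas, which also overlapped. For Prm1, Ctrl 1 and 2 lay near Olig1-Gnas and Ctrl 3 lay among hGFAP-Gnas.

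Within hGFAP-Gnas the 3 higher genes did not rank the libraries alike. hGFAP-Gnas 3 had the most Prm1, hGFAP-Gnas 6 the most Krt10 (59.6 FPKM) and hGFAP-Gnas 4 the most Dmrtb1 (24.4 FPKM), while hGFAP-Gnas 1 was lowest for all 3. Dmrtb1 was at 0.703 to 24.4 FPKM in the 4 deeper hGFAP-Gnas libraries and 7.29 to 19.9 FPKM in the 4 shallower ones. The 2 highest Gdpd3 levels of the group, in hGFAP-Gnas 3 and 1, are in deeper libraries.

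The differences of hGFAP-Gnas over Olig1-Gnas were also taken within the depth classes, as a description; the choice of the genes sets their directions. In the deeper libraries alone (4 of each knockout) they were 6.30 ± 0.43 for Prm1, 2.14 ± 0.82 for Krt10, -3.55 ± 0.86 for Gdpd3 and -2.42 ± 0.56 for Gpat2 (SE), and Dmrtb1 did not pass the filter. In the shallower libraries alone they were 6.46 ± 0.22 for Prm1, 2.90 ± 0.30 for Krt10, 3.39 ± 0.30 for Dmrtb1, -5.37 ± 0.16 for Gdpd3 and -3.16 ± 0.18 for Gpat2 (SE). With the Y-linked signal as a term they were 6.78, 2.82, 2.45, -3.70 and -2.72 for Prm1, Krt10, Dmrtb1, Gdpd3 and Gpat2; 1 hGFAP-Gnas and 2 Olig1-Gnas libraries alone separate that signal from the knockouts. Against Ctrl, the difference of Prm1 in hGFAP-Gnas was 5.70 in deeper libraries and 0.62 in shallower ones, where Ctrl 3 is the 1 Ctrl library.

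**Figure D4:**
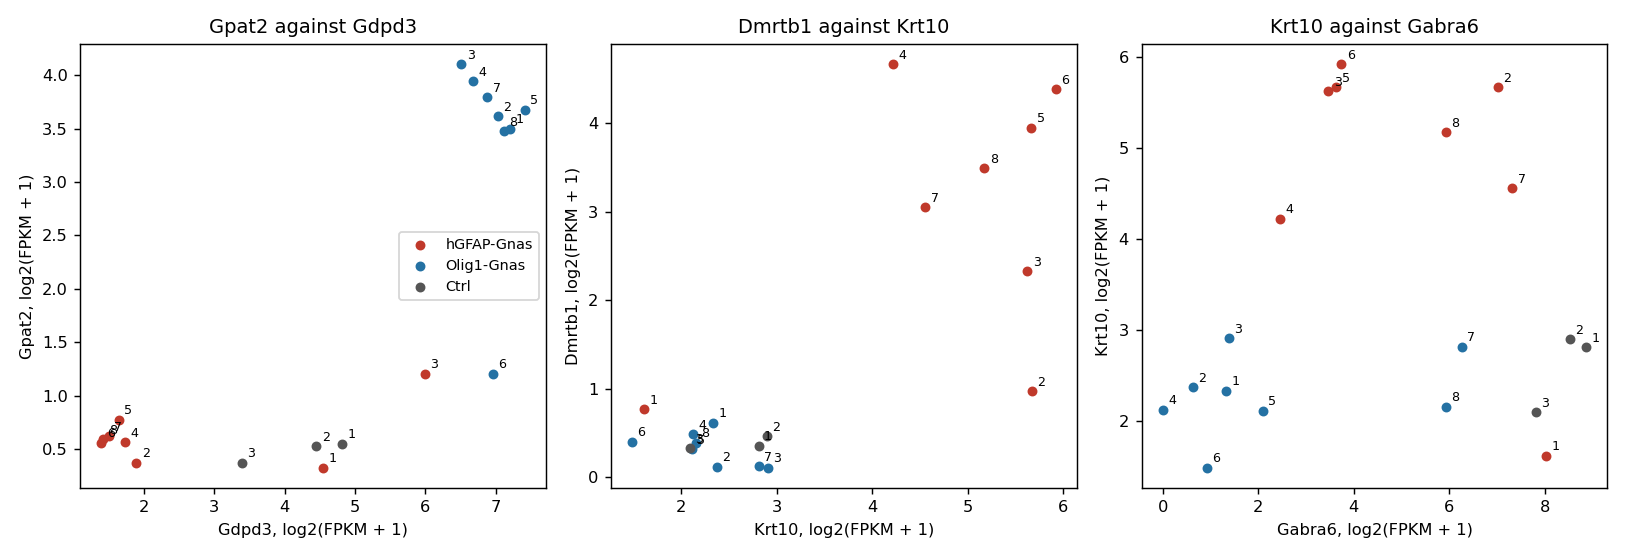
Levels as log2(FPKM + 1) of Gpat2 against Gdpd3, Dmrtb1 against Krt10, and Krt10 against the granule neuron gene Gabra6, with 1 numbered point for each library and hGFAP-Gnas, Olig1-Gnas and Ctrl in 3 colours. hGFAP-Gnas 1 lies near Ctrl at 2.06 FPKM Krt10 and 261 FPKM Gabra6, Olig1-Gnas 6 lies apart from its group at 1.30 FPKM Gpat2, and hGFAP-Gnas 3 has the highest Gdpd3 of its group, 62.6 FPKM.

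Likeness of profile was measured for 14590 genes as the mean absolute difference of standardised log2(FPKM + 1) over the 19 libraries, which is 0 for the same profile. The libraries of all 3 groups are pooled, so the measure includes the differences between groups. Nearest to Prm1 were 2410004P03Rik (0.407), Ppap2c (0.416) and 4932438H23Rik (0.434), each at a median of 4.28 FPKM or less in hGFAP-Gnas. Nearest to Krt10 were its neighbour Krt23 (0.31), the interferon-inducible gene Mndal (0.418) and the macrophage mannose receptor Mrc1 (0.42). Among the nearest to Dmrtb1 were Mrc1 (0.356) and the iron reductase Cybrd1 (0.358).

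Mrc1 is thus among the nearest of both Krt10 and Dmrtb1. It was at 1.25 to 7.19 FPKM in hGFAP-Gnas (median 5.66), 0.710 to 2.07 FPKM in Olig1-Gnas (median 1.40) and 0.972 to 1.11 FPKM in Ctrl. The summed level of the microglia and macrophage markers Cd68, C1qb and Tyrobp, in contrast, was 65.8 to 641 FPKM in hGFAP-Gnas, 292 to 984 FPKM in Olig1-Gnas and 28.6 to 37.7 FPKM in Ctrl. The part of macrophage RNA in Krt10 and Dmrtb1 was not tested.

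Nearest to Gpat2 were Dlx6os1 (0.261), Dlx6 (0.287) and the chromatin protein gene Hmga1 (0.392). Dlx6, a homeobox gene of forebrain interneurons, was at 0 to 2.71 FPKM in hGFAP-Gnas (median 0.307), 5.17 to 52.5 FPKM in Olig1-Gnas (median 15.8) and 0 in all 3 Ctrl libraries. Nearest to Gdpd3 were the ribosomal protein gene Rpl29 (0.417), Zfp248 (0.471) and Fxr2 (0.481). Rpl29 was at 0.557 to 39.5 FPKM in hGFAP-Gnas (median 2.39), 9.84 to 47.3 FPKM in Olig1-Gnas (median 34.8) and 5.38 to 6.01 FPKM in Ctrl; genes of ribosomal proteins have many near-identical processed copies, so its level is uncertain. Between the 5 genes themselves, Krt10 and Dmrtb1 were nearest to each other (0.452), followed by Prm1 and Krt10 (0.486), Prm1 and Dmrtb1 (0.528) and Gdpd3 and Gpat2 (0.535). The genes were chosen for their differences between the knockouts, so genes with the same direction lie near each other by the choice.

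Marker levels of other cell types ranged widely within the knockouts. The summed level of the mature granule neuron markers Gabra6, Cbln3 and Slc17a7 was 20.5 to 704 FPKM in hGFAP-Gnas, 0.177 to 217 FPKM in Olig1-Gnas and 849 to 1176 FPKM in Ctrl. That of the dividing-cell markers Mki67, Top2a and Birc5 was 7.25 to 427 FPKM in hGFAP-Gnas, 262 to 603 FPKM in Olig1-Gnas and 0.620 to 0.962 FPKM in Ctrl. The Olig1 gene was at 54.6 to 165 FPKM in hGFAP-Gnas, 11.2 to 86.2 FPKM in Olig1-Gnas and 25.4 to 30.7 FPKM in Ctrl. The part of such differences in the levels of the 5 genes was not tested.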

How the data were processed

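Cerebellar RNA of 19 separate mice was sequenced, and p-values measure the spread between mice. Values are FPKM deposited by the authors, in 1 table per knockout, each with the 3 Ctrl libraries; TopHat, Cufflinks and mm9 are named per the submitters' processing notes, and versions, annotation and read totals are not given in the sources used here. Ctrl 1 differs between the tables in 5106 genes with a median ratio of 1.0; the 5 genes have identical Ctrl values in both. Depth could be inferred only as a relative measure, and an exact 0 may be a failed estimate.

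The 5 genes, the gene lists and the markers were chosen with earlier results of these data known. Genes that reached 1 FPKM in 3 or more libraries of a fit were tested on log2(FPKM + 1) with limma 3.58.1 (R 4.3.3; trend and robust moderation), without further scaling, using the groups compared only, and called at a Benjamini-Hochberg adjusted p under 0.05 over all tested genes. The offset of 1 understates the change of low genes. Named were the 5 genes, called list members (up to 4 with the largest differences), the 3 nearest neighbours on each side and the 3 nearest profiles, of which 1 is not reported here. Alternatives varied the offset, filter, scaling, replicate block, Y-linked signal, depth class, joint fit and each library left out. Promoter sequences are RefSeq's on GRCm38.p6.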

Additional observations from a re-analysis of the deposited data

Results flagged for a closer look

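Each gene was examined for a single library standing apart from the other 7 in each knockout, 10 groups in all. By chance about 1 in 20 such groups shows one, and 2 did.

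Gpat2 in Olig1-Gnas 6 was 1.30 FPKM, against 10.1 FPKM or more in the other 7 Olig1-Gnas libraries, and the gap took 0.784 of the group's range on the log2 scale, over the limit of Dixon's ratio for 8 libraries. It still lay above the 3 Ctrl libraries. Gdpd3, the other gene higher in Olig1-Gnas, was 123 FPKM in the same library, within its group.

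Krt10 in hGFAP-Gnas 1 was 2.06 FPKM, against 17.7 FPKM or more in the other 7 hGFAP-Gnas libraries, with a gap of 0.605 of the range. The same library had the group's highest sum of mature granule neuron markers, 704 FPKM, and the lowest of dividing-cell markers, 7.25 FPKM; their part in the Krt10 level was not tested. Gpat2 in hGFAP-Gnas 3 came near the limit, at 0.488.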

How the results depend on the processing

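Of 299 alternative values of the 5 genes' log2 differences, 267 kept direction and side of the threshold, or, for values with no test, moved by less than the spread between replicates; 26 lost the call, 2 gained one, 3 moved and 1 reversed. These counts include the differences between the knockouts, whose directions the choice of the genes sets. The knockout libraries entered the choice, so the values against Ctrl are not independent of it either. The counts describe the processing and are no support for the differences. With an offset of 0.1 FPKM the differences of hGFAP-Gnas over Olig1-Gnas were 8.90 for Prm1, -3.94 for Gpat2 and 4.24 for Dmrtb1. Gdpd3 in Olig1-Gnas over Ctrl kept its call in all 23 alternatives. In hGFAP-Gnas over Ctrl, Krt10 lost its call without a filter (2.21), with quantile normalization (2.003), the replicate block (1.70), a Y-linked term (2.25), a depth term (2.11) and deeper libraries alone (1.43), and ranged from 1.95 to 2.66 with 1 library left out. Dmrtb1 lost its call with quantile normalization (2.17) and the block (0.97), and ranged from 2.32 to 2.88. Prm1 lost it with the block (4.08), deeper libraries alone (5.70) and shallower libraries alone (0.62, against Ctrl 3 as the 1 Ctrl library, assumed to vary like the other groups), and ranged from 3.03 to 5.91. Gdpd3 gained a call in shallower libraries alone (-1.90) and without hGFAP-Gnas 3, and ranged from -2.20 to -1.41 with 1 library left out; it was -1.09 in deeper libraries alone and -0.075 with the block (limma adjusted p = 0.968), not called. Krt10 in Olig1-Gnas over Ctrl reversed to 0.34 in shallower libraries alone. In the block fits against Ctrl, only knockout libraries that share a number with Ctrl 1, 2 or 3 inform the difference. Those fits therefore do not show how the result of all 8 knockout libraries holds. The cause of the other changes was not tested.

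The 59 genes called between the knockouts became 35 at 5 FPKM in 3 libraries, 25 with the block, 3 with the Y-linked term (limma; 652 at an unadjusted p under 0.05), 166 with the depth term, 178 in 1 fit over all groups and 3 in deeper libraries alone. They ranged from 11 (without hGFAP-Gnas 8) to 104 (without hGFAP-Gnas 3), and were 35, 34 and 25 without hGFAP-Gnas 2, 4 and 7 and 23, 25 and 33 without Olig1-Gnas 2, 4 and 5. The 5570 of hGFAP-Gnas over Ctrl became 0 with the block (limma; 2654 at an unadjusted p under 0.05), 6 in deeper and 2277 in shallower libraries alone, and ranged from 818 (without Ctrl 2) to 8164 (without hGFAP-Gnas 1), with 1049 and 1924 without Ctrl 1 and 3. The 8485 of Olig1-Gnas over Ctrl became 5141 in shallower libraries alone and ranged from 6971 to 9546. Quantile normalization moved the share of higher calls from 64.4% to 46.6% between the knockouts, from 67.1% to 49% in hGFAP-Gnas over Ctrl and from 60.5% to 50.6% in Olig1-Gnas over Ctrl, and the median difference of all genes from 0.186 to -0.013 and from 0.217 to 0.057 in the comparisons with Ctrl. Upper quartile scaling gave shares of 70.7%, 60.8% and 51.4%. Same-numbered libraries of the 2 knockouts correlated at -0.172 to 0.254 over 8 pairs, and 2 of 8 matched best with their own number, so the numbers were not taken as pairs. The block counts against Ctrl likewise rest only on knockout libraries that share a number with a Ctrl library. Restriction to deeper or shallower libraries was chosen after seeing the data.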

Other observations

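Dazl, an RNA-binding protein gene of germ cells, was singled out after its values were seen, since it made the summed germ cell markers Ddx4, Dazl, Tnp1 and Prm2 range from 0.454 to 277 FPKM in Olig1-Gnas, against 0.206 to 0.781 FPKM in hGFAP-Gnas and 0.304 to 0.576 FPKM in Ctrl, with Tnp1 at 0 in all 19 libraries. It was at 0.41, 0.30, 277, 16.1, 0.41, 2.63, 216 and 0.25 FPKM in Olig1-Gnas 1 to 8. It reached at most 0.0922 FPKM in hGFAP-Gnas and was at 0.111 to 0.249 FPKM in Ctrl. Prm1 was 0.637 FPKM in Olig1-Gnas 3 and 0 in Olig1-Gnas 7, the libraries with the most Dazl. It was not called by limma, at -2.89 ± 1.11 (SE, adjusted p = 0.171) for hGFAP-Gnas over Olig1-Gnas and 2.69 ± 1.89 (SE, adjusted p = 0.240) for Olig1-Gnas over Ctrl.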
